A study of Mus musculus with 2 samples.

Results

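Aldoa, Eno3 and Pkm encode 3 enzymes of glycolysis: fructose-bisphosphate aldolase, beta-enolase and pyruvate kinase. The 3 genes are known for muscle forms, of the transcript for Aldoa and Pkm and of the gene for Eno3. They were taken as the genes of those names in the deposited tables, with every transcript model assigned to them. That gave 230 models of 72469 in replicate 1 and 327 of 88667 in replicate 2, for 3 of 15508 annotated genes with a read. Both libraries came from the gastrocnemius, a calf muscle made mostly of fast fibres, of male B6CASTF1/J mice at 36 days of age. These are F1 hybrids between the C57BL/6J and CAST/EiJ strains. Each library was made from 2 µg of RNA and sequenced with long reads. Replicate 1 came from the animal labelled male 03 and replicate 2 from male 04, and a single donor entry covers the pair. There was 1 group, with no treatment and no control, so p-values compare these 2 libraries and not conditions.

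Glycolysis turns glucose into pyruvate and is the main source of rapid energy in fast muscle fibres. Aldolase splits the phosphorylated sugar, enolase makes phosphoenolpyruvate, and pyruvate kinase turns that into pyruvate while making ATP. The genes reach a muscle form by different routes. Aldoa has several promoters, one of which is known to be active mainly in muscle. Eno3 is the muscle member of a gene family whose other members serve other tissues. Pkm chooses between 2 exons of equal length, exon 9 for the M1 enzyme of adult muscle and exon 10 for the M2 enzyme of growing cells, whose activity is regulated by fructose bisphosphate.

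The sequences of the alternative Pkm exons are shown because the choice between them sets which enzyme is made. They are from the GENCODE M21 transcripts on mm10, plus strand, exon 9 at chr9:59675029-59675195 and exon 10 at chr9:59675568-59675734. Capitals mark the bases at which the 2 exons differ when aligned without gaps.

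Pkm exon 9: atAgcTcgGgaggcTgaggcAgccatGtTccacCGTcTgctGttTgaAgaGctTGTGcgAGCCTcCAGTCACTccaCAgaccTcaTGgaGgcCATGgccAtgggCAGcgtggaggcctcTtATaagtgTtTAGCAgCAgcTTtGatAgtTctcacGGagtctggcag

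Pkm exon 10: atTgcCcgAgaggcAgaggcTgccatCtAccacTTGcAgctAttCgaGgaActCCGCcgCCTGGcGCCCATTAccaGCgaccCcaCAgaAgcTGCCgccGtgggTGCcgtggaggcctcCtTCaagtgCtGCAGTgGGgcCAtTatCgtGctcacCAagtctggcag

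Each exon is 167 bases long, and 103 of these (61.7%) are identical. The 64 differences are spread along the exon, with 35 in its first 83 bases and 29 in its last 84. The longest identical run is 12 bases, at positions 108 to 119 of the exon.

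Libraries held 1106945 and 1514119 reads, of which 1036455 and 1374068 were in annotated genes. Levels are in CPM, which scales the gene reads of each library to a sum of 1000000, and a count of 0 allows up to 2.89 and 2.18 CPM. The 6 markers of skeletal muscle fibres (Acta1, Ckm, Tnnt3, Myh4, Ttn and Tnnc2) summed to 204076 and 200133 CPM. Of the satellite cell markers, Pax7 had no reads and Myf5 had 1, in replicate 2. Between the libraries, 1458 of 8339 genes tested (17.5%) were called. A call needed a 2-fold difference or more and a Benjamini-Hochberg adjusted p below 0.05 in a two-sided exact conditional binomial test. The median log2 ratio of replicate 2 to replicate 1 over these genes was -0.28. Scaling by edgeR's TMM factors moved every log2 ratio up by 0.29 and DESeq2's size factors by 0.41. Of the calls, 997 (12.0% of genes tested) were higher in replicate 1 and 461 (5.53%) in replicate 2. The split was 523 against 853 with TMM factors and 375 against 1083 with DESeq2 factors. Intervals are Wilson 95% intervals per library, and since no molecular identifiers were used here they cover counting error only. Means are given ± SD over n = 2 replicates.

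All 3 genes were among the most abundant of the muscle, and none was called between the libraries. Aldoa had 14784 and 18371 reads, 14264 and 13369.8 CPM, and ranked 8 and 10 among all genes. Eno3 had 9504 and 14856 reads, 9169.7 and 10811.7 CPM, and ranked 11 in both libraries. Pkm had 4596 and 3740 reads, 4434 and 2722 CPM, and ranked 19 and 35. The order Aldoa, Eno3, Pkm was the same in each library. The ranges of the 3 genes over the libraries did not overlap. A long read was counted once whatever the length of its transcript, so these levels were not divided by length. They count reads and, without molecular identifiers, not molecules. Leading models were 1346, 1454 and 2041 bases long for Aldoa, Eno3 and Pkm, and no length-dependent yield was corrected.

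The mean level of Aldoa was 13816.9 ± 632.3 CPM, and its log2 ratio of replicate 2 to replicate 1 was -0.09 (exact binomial test, adjusted p = 8.12e-08). The direction depended on the scaling: it was 0.19 with TMM factors and 0.31 with DESeq2 factors. Eno3 had 9990.7 ± 1161.1 CPM and a log2 ratio of 0.24 (exact binomial test, adjusted p = 1.17e-34). Pkm had 3578.1 ± 1210.9 CPM and a log2 ratio of -0.70 (exact binomial test, adjusted p = 3.19e-107). Pkm stayed lower in replicate 2, and Eno3 higher, with either other scaling. All 3 differences were under the 2-fold that a call required, although the p-values were small at these depths. In bulk tissue, fewer cells of a type and less RNA per cell cannot be told apart.

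**Figure D1:**
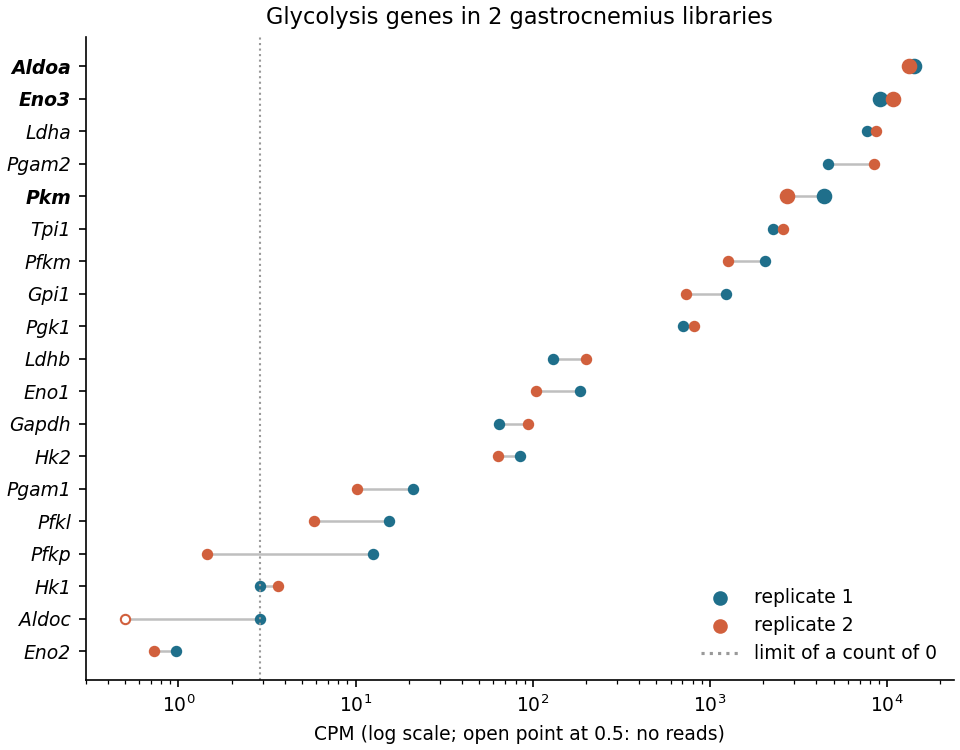
Level in CPM (log scale) of the 3 genes, in bold, and of the other glycolysis genes with reads, 1 point per library joined by a line. The dotted line is the higher of the limits that a count of 0 allows, 2.89 CPM. Aldoa and Eno3 sit at the top, and Pkm lies between Pgam2 and Tpi1.

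Other glycolysis genes were given by a list of 19 genes that leaves out the 3 members. Of these, 16 had reads, 13 could be tested, and 1 was called, against 17.5% of all genes. It was Pfkp, a phosphofructokinase of many tissues, at 13 and 2 reads. Its log2 ratio was -2.84 (exact binomial test, adjusted p = 0.00694). The median log2 ratio of the 13 tested genes was -0.41, against -0.28 over all genes tested. It was -0.12 with TMM factors, where Pgam2 was also called, and 0 with DESeq2 factors, where Ldhb and Pgam2 were. Some other muscle forms were also high: Ldha (lactate dehydrogenase) had 7714 and 8619 CPM and Pgam2 (the muscle phosphoglycerate mutase) 4659 and 8425 CPM. Pfkm, the muscle phosphofructokinase, had 2051 and 1271 CPM. Hk2, the muscle hexokinase, was lower, at 84.9 and 64.0 CPM. Of forms best known from other tissues, Pgam1 had 21.2 and 10.2 CPM, Pfkl, the liver phosphofructokinase, 15.4 and 5.82 CPM, and Ldhb, the heart-type lactate dehydrogenase, 130 and 201 CPM. Gapdh, with 64.6 and 94.6 CPM, has many processed copies in the genome, so its count is uncertain.

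Paralogues of the 3 members contributed few reads. Aldoc, the brain aldolase, had 3 reads in replicate 1 and 0 in replicate 2. Of the reads of these 2 genes, Aldoa held 99.98% (interval 99.94 to 99.99%) in replicate 1 and all 18371 in replicate 2. Pklr, the pyruvate kinase of liver and red cells, had 0 reads in both libraries, which allows up to 0.0653% and 0.0802% of pyruvate kinase reads. Enolases were the family with a second member at a measurable level. Eno1, the enolase of most tissues, had 193 and 143 reads (186 and 104 CPM), and its near copy Eno1b had 18 and 14. Reads of these 2 genes may be split between them by the authors' counting. Eno3 held 97.8% (97.5 to 98.1%) and 98.9% (98.8 to 99.1%) of enolase reads. Eno2, the neuronal enolase, had 1 read in each library and Eno4 had 0. Eno1b was named after its values were seen.

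Likeness in level was measured as the Euclidean distance between the 2 libraries' log2(CPM + 1) values. The 3 nearest genes to Aldoa were Myh4 (distance 0.31), the heavy chain of the fastest fibres, Slc25a4 (0.52), the mitochondrial ADP/ATP carrier, and Eno3 (0.71). Nearest to Eno3 were Ldha (0.41), Aldoa (0.71) and Slc25a4 (0.81). Nearest to Pkm were Myoz1 (0.45), a Z-disc protein of fast fibres, Mybpc2 (0.52), the fast myosin binding protein, and Tpm2 (0.55), a tropomyosin. With 2 libraries this describes the levels only.

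Models of the 3 genes were matched between the libraries by their chains of splice junctions. Aldoa had 112 matched models, Eno3 197 and Pkm 115, of which 34, 64 and 35 were found in both libraries. The shared models held nearly all reads, from 98.8% to 99.8% of a gene's reads in a library. Single-read models made up 62, 107 and 71 of the models. Models with at least 1% of the gene's reads in either library numbered 7 for Aldoa, 9 for Eno3 and 7 for Pkm. These are described below, and the largest of the others had 181, 143 and 41 reads.

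The tables sort models into annotated transcripts, incomplete matches (part of an annotated transcript), new combinations of annotated splice sites, new junctions and genomic models. Annotated models held 88.3% and 79.4% of Eno3 reads and 89.3% and 76.8% of Pkm reads. They held only 6.65% and 4.74% of Aldoa reads. Incomplete matches held 92.0% of Aldoa reads in replicate 1 and 14.0% in replicate 2, and new combinations 1.00% and 78.3%. This swap was 1 chain of junctions: the leading Aldoa model was classed as an incomplete match in replicate 1 and as a new combination in replicate 2. With each chain given the more complete of its 2 classes, new combinations held 84.4% and 78.4% of Aldoa reads.

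**Figure D2:**
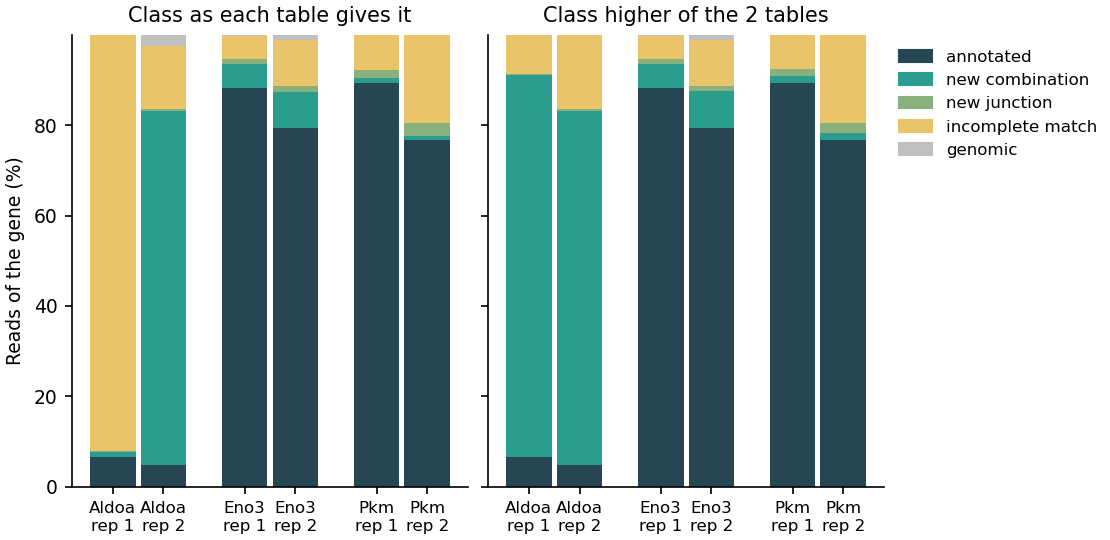
Share of each gene's reads by model class in each library, as the tables give the class (left) and with each chain of junctions in the more complete of its 2 classes (right). The Aldoa bars differ between libraries on the left, 92.0% against 14.0% incomplete matches, and are closer on the right, 8.66% against 16.4%. Eno3 and Pkm differ little between the panels.

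The leading Aldoa model joined the muscle first exon to the common exons of the gene. Aldoa (ENSMUSG00000030695.16) lies on the minus strand at chr7:126795234-126800751. A second annotated gene of the same name, at chr7:126800790-126809108, had no reads. The muscle first exon is known as the one between the upstream first exons and the downstream first exon used in most tissues. The annotation gives an exon at that place, at chr7:126800002-126800046 in Aldoa-204 and Aldoa-210, and does not name it. For counting, it was picked as the annotated first exon whose donor the Aldoa model with most reads used. No other annotated first exon lies between those of Aldoa-203 and Aldoa-201. The muscle exon is noncoding and 45 bases long at most. Its 5′ end lies 401 bases downstream of that of Aldoa-203 and 792 bases upstream of that of Aldoa-201. Aldoa-210 ends 2 exons short of the 9 exons of Aldoa-201, so the annotation holds no full-length transcript with this first exon. The leading model had 9 exons and 1346 bases, with 12320 reads (83.3% of Aldoa reads) in replicate 1 and 14236 (77.5%) in replicate 2. Aldoa-201, which starts at the downstream exon, followed with 923 (6.24%) and 806 (4.39%) reads.

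First exons were counted by the donor of a model's first junction. Among reads whose first junction began at any annotated first-exon donor, the muscle exon held 12446 of 13960 in replicate 1 and 14395 of 16120 in replicate 2. These were 89.2% (88.6 to 89.7%) and 89.3% (88.8 to 89.8%), with a mean of 89.2 ± 0.102%. The 2 libraries therefore had overlapping intervals for this share. That denominator includes annotated short transcripts whose first donor lies downstream of the start codon, Aldoa-206 and Aldoa-208. Their donors began 463 and 777 reads, which could also be reads that stopped early. Without them the share of the muscle exon was 92.2% (91.7 to 92.7%) and 93.8% (93.4 to 94.2%), and these intervals did not overlap. This denominator was added after the data were seen.

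The other Aldoa first exons were minor. The downstream exon of Aldoa-201, at chr7:126799045-126799254, began 933 (6.91%, 6.50 to 7.35%) and 821 (5.35%, 5.01 to 5.72%) of the reads with an upstream first exon. It was lower in replicate 2, and the intervals did not overlap. In CPM it stood at 900 and 597, against 12008 and 10476 for the muscle exon. The upstream exons of Aldoa-207 and Aldoa-203 began 53 and 62 reads and 54 and 57 reads, from 0.372% to 0.404% of those reads. Aldoa-212 began 11 and 8 reads, and Aldoa-205 none, which allows up to 3 reads. The muscle exon was first and the downstream exon second in each library, and the 2 upstream exons had overlapping intervals.

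A second alternative within Aldoa changes the start codon in the annotation, and protein was not measured. The exon at chr7:126797974-126798126 is 153 bases long and carries a start codon upstream of the common one in Aldoa-202. Its 141 coding bases, on the minus strand, are shown because the annotation starts translation in it. Capitals mark the start codon.

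Aldoa alternative exon, coding bases: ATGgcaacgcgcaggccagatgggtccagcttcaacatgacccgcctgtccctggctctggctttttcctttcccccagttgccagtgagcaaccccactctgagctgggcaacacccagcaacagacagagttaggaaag

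It was joined to the muscle first exon in 57 of 12446 reads (0.458%, 0.354 to 0.593%) and 46 of 14395 (0.320%, 0.240 to 0.426%). After the downstream first exon it was in 6 of 933 reads (0.643%, 0.295 to 1.40%) and 7 of 821 (0.853%, 0.414 to 1.75%). In both libraries the intervals of the 2 first exons overlapped. The exon was therefore rare after either first exon.

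The remaining described Aldoa models covered the 3′ part of the gene and held no first exon upstream of the start codon. The 7-exon and 8-exon models have the first donors of Aldoa-208 and Aldoa-206. For these, a short transcript and a read that stopped early cannot be told apart. A 2-exon model had 368 and 1006 reads, a 7-exon model 306 and 506, a 5-exon model 164 and 368, and an 8-exon model 152 and 259. A group of single-exon models at the 3′ end had 123 and 450 reads. Its model is 280 bases long in replicate 1 and 3 bases in replicate 2, so the ends of a model are not those of its reads and were not used as measurements. All 5 took a larger share of Aldoa reads in replicate 2 than in replicate 1.

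Eno3 reads mainly used 1 first-exon donor and divided at the start of exon 2. The gene (ENSMUSG00000060600.15) lies on the plus strand at chr11:70657202-70662513, with 12 exons in its leading transcript. The 250 bases before its RefSeq start (GRCm38.p6, chr11:70656926-70657175, plus strand) are shown because nearly all Eno3 reads that reach exon 1 used the exon that follows. Capitals mark an E-box, the motif bound by myogenic factors such as MyoD.

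Eno3 promoter: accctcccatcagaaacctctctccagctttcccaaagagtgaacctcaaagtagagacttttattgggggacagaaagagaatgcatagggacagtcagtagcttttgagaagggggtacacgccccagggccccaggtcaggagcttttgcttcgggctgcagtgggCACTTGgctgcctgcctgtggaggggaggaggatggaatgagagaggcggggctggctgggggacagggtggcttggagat

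An E-box (CANNTG, either strand) was found once, starting 81 bases before the start, and 66.2% of 32851 RefSeq promoter windows of the same length held at least 1. A TATA box (TATAAA, in 12.4% of windows) and a GC box (GGGCGG, 32.7%) had no match on either strand. These letters describe the window and show no binding. RefSeq has Aldoa windows only for the upstream and downstream first exons, so none was searched for the muscle exon.

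By the donor of the first junction, the exon at chr11:70657202-70657267 of Eno3-201 and Eno3-202 held 7690 of 9130 reads (84.2%, 83.5 to 85.0%) in replicate 1 and 11620 of 13882 (83.7%, 83.1 to 84.3%) in replicate 2. The mean was 84.0 ± 0.369%, and the intervals overlapped. Counting only donors upstream of the start codon, it held 96.6% (96.2 to 97.0%) and 96.0% (95.7 to 96.4%). A donor 12 bases further on, of Eno3-205, took 254 (3.19%) and 467 (3.86%) of those reads, and the donor of Eno3-203 took 18 and 13. An unannotated donor 5 bases after the main one was used by 51 and 88 reads. A few reads began at unannotated exons further upstream, with donors 487 bases (18 and 11 reads) and 360 bases (6 and 12 reads) before the main one. Upstream of the start codon, donors other than the main one and those 5 and 12 bases after it thus held few reads.

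The second difference among Eno3 transcripts lies at the acceptor of exon 2. Eno3-201 enters exon 2 at a point 2 bases before the start codon, and Eno3-202 enters it 112 bases earlier, so the extension is noncoding and both code for the same enzyme. Of reads spliced from an upstream exon into either acceptor, 2274 of 8043 (28.3%, 27.3 to 29.3%) in replicate 1 and 3443 of 12216 (28.2%, 27.4 to 29.0%) in replicate 2 took the long form. This share differed by less than its counting error between the libraries. With the main donor the long form made up 28.4% (27.4 to 29.4%) and 28.5% (27.7 to 29.4%). With the donor 12 bases further on it made up 23.6% (18.8 to 29.2%) and 19.9% (16.5 to 23.8%). In replicate 2 the intervals of the 2 donors did not overlap, and in replicate 1 they did.

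By model, Eno3-201 had 5321 reads (56.0%) and 7748 (52.2%), and Eno3-202 had 2121 (22.3%) and 3101 (20.9%). Eno3-206, which the annotation starts inside exon 2, had 949 reads in each library, 9.99% and 6.39% of Eno3 reads. All reads whose first junction left exon 2 numbered 987 and 1046. A start inside exon 2 and a read that stopped there cannot be told apart, since model ends are not read ends. Of the 6 other described Eno3 models, 1 was the chain with the donor 12 bases on (189 and 344 reads). Another was a chain with a donor shift in exon 4 (125 and 421). Models of 9, 6 and 3 exons at the 3′ end had 110 and 522, 71 and 199, and 49 and 177 reads. The last, a single-exon model classed as genomic, had 21 and 163 reads. It was 5307 bases long in replicate 1 and 3368 in replicate 2. These last 4 models each took a larger share in replicate 2.

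Of Pkm reads with a junction of exon 9 or exon 10, almost all carried exon 9, the exon of the M1 enzyme. The gene (ENSMUSG00000032294.17) lies on the plus strand at chr9:59656368-59679375, and exon 9 or 10 is spliced between exon 8 and exon 11. Among reads with a junction of either exon, 4451 of 4501 in replicate 1 and 3357 of 3372 in replicate 2 had exon 9 alone. These were 98.9% (98.5 to 99.2%) and 99.6% (99.3 to 99.7%), with a mean of 99.2 ± 0.471%. Exon 10 was alone in 49 reads (1.09%, 0.824 to 1.44%) and 15 reads (0.445%, 0.270 to 0.733%). The share of exon 10 was higher in replicate 1 and the intervals did not overlap. In replicate 1, 1 read held both exons, and no read joined exon 8 to exon 11 directly. A count of 0 allows up to 0.0667% and 0.0890% of such reads. Pkm reads with no junction of either exon fell outside these shares. They numbered 95 of 4596 (2.07%, 1.69 to 2.52%) in replicate 1 and 368 of 3740 (9.84%, 8.93 to 10.8%) in replicate 2.

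**Figure D3:**
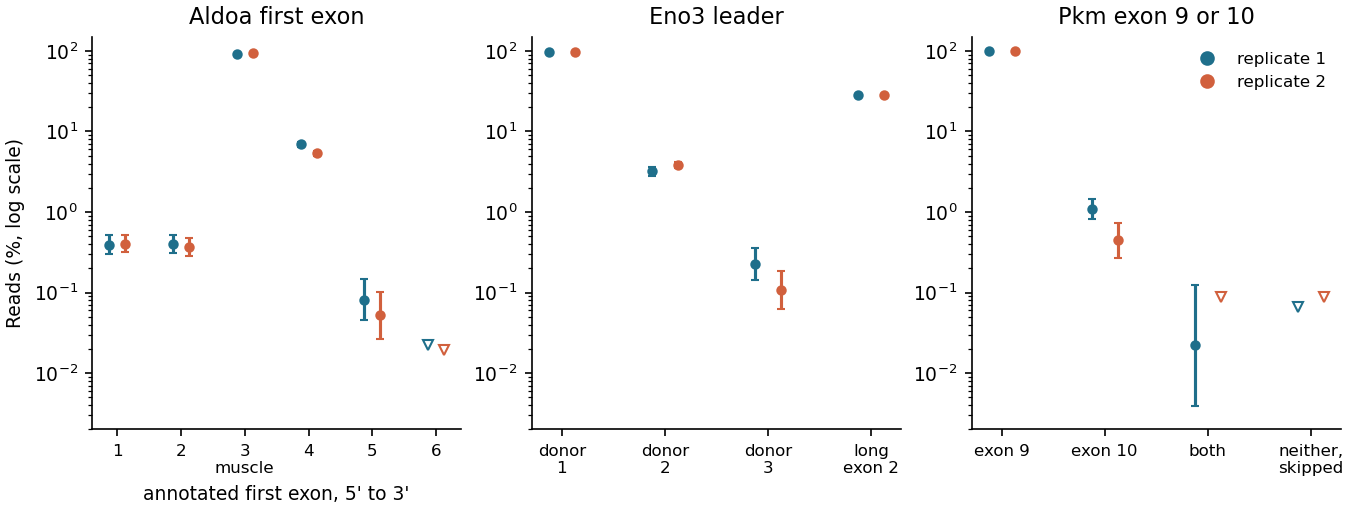
Share of reads (log scale) for each form in replicate 1 and replicate 2, with Wilson 95% intervals. Open triangles mark the limit that a count of 0 allows, 3 reads, for forms with 0 reads. Aldoa shows the 6 first exons upstream of the start codon, Eno3 the 3 annotated donors upstream of the start codon and the long form of exon 2, Pkm the exon choice. The muscle first exon, the main Eno3 donor and Pkm exon 9 each exceed 90%.

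In CPM, exon 9 forms stood at 4294 and 2443 and exon 10 forms at 47.3 and 10.9. The Pkm M2 transcript is known from many cell types other than muscle fibres, and some markers of such cells also differed between the libraries. The 4 fibroblast markers had a total of 3175 and 793 CPM, with 2 of 4 called higher in replicate 1 (Col1a1 and Col3a1), against 12.0% of all genes tested, and Pdgfra at 4 and 7 reads. The 3 Schwann cell markers summed to 929 and 333 CPM (1 of 3 called), and the 3 smooth muscle markers to 89.7 and 39.3 CPM (2 of 3 called, none with either other scaling). Immune markers summed to 20.3 and 6.55 CPM with Ptprc at 0, and endothelial markers to 18.3 and 13.1 CPM, with none of the 3 genes tested in these lists called (exact binomial test), and none at an unadjusted p under 0.05. The 3 adipocyte markers summed to 84.9 and 263 CPM, with 1 of 2 tested, Fabp4, called higher in replicate 2, against 5.53% of all genes, and Plin1 at 3 reads and 1 read. With either other scaling, Adipoq was also called higher in replicate 2. Blood markers summed to 270 and 357 CPM, with 0 of 4 called by the exact binomial test and 2 at an unadjusted p under 0.05. These markers' part in the shares of Pkm exon 10 and of the downstream Aldoa exon was not tested.

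Proteins known to act on the choice of exon 9 or 10 were given by a list of 8 genes. Ptbp1, which represses exon 9 in growing cells, had 10 reads in each library (9.65 and 7.28 CPM). Hnrnpa1 had 50 and 57 reads, Srsf3, which favours exon 10, had 36 and 28, and Rbm4, which favours exon 9, had 6 and 9. Of 6 tested, 1 was called, near the 17.5% of all genes. It was Hnrnpa2b1, with 370 and 766 CPM and a log2 ratio of 1.05 (exact binomial test, adjusted p = 2.05e-35), and 5 were not called. The median log2 ratio of the 6 was -0.31, against -0.28 over all genes tested, and it turned to 0.09 with DESeq2 factors. Of 6 known activators of muscle promoters, 3 were called higher in replicate 1, against 12.0% of all genes tested. These were Mef2a (56.0 and 16.7 CPM), Mef2c (161 and 70.6 CPM) and Myog (77.2 and 30.6 CPM). Mef2d, Myod1 and Srf were not called, and the median over the 6 was -1.21, against -0.28 over all genes tested. With TMM factors Mef2a and Myog remained called, with DESeq2 factors Mef2a alone.

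By model, Pkm-202, the M1 transcript, had 4064 reads (88.4%) and 2860 (76.5%). Pkm-201, the M2 transcript, had 41 and 13 reads and so did not reach 1%. A single-exon 3′ model had 78 reads (1.70%) and 333 (8.90%). Models of 3, 6 and 7 exons at the 3′ end had 35 and 102, 66 and 76, and 42 and 59 reads. A 10-exon model from the second exon onward had 50 and 33, and a chain with a donor shift in exon 7 had 21 and 42. Apart from the 10-exon model, each of these took a larger share of Pkm reads in replicate 2.

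The share of the leading model was compared between libraries with a two-sided Fisher exact test, with a call at 10 percentage points or more and a Benjamini-Hochberg adjusted p below 0.05. Of 1834 genes tested, 559 (30.5%) were called. Pkm was among them, at 88.4% and 76.5% (Fisher's exact test, adjusted p = 1.60e-45). Aldoa, at 83.3% and 77.5%, and Eno3, at 56.0% and 52.2%, moved the same way by under 10 points. Without incomplete and genomic models, Pkm-202 held 95.8% and 95.0% and the call was lost (Fisher's exact test, adjusted p = 0.682). With that restriction 20 genes were called. Aldoa was among them, at 0 of 1183 and 14236 of 15356 reads, through the difference in class given above.

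Coverage from the 3′ end showed the same gap. A read was said to reach a junction when it held that junction or one further upstream. The most 5′ junction was reached by 91.3% of Aldoa reads in replicate 1 and 83.6% in replicate 2. For Eno3 it was 84.6% and 82.3%, and for Pkm 92.4% and 80.6%. At every junction of the 3 genes, the share was lower in replicate 2. In Pkm, 91.0% of replicate 2 reads reached even the last junction, against 98.3% in replicate 1. In Eno3, 95.0% and 89.3% reached the second junction.

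**Figure D4:**
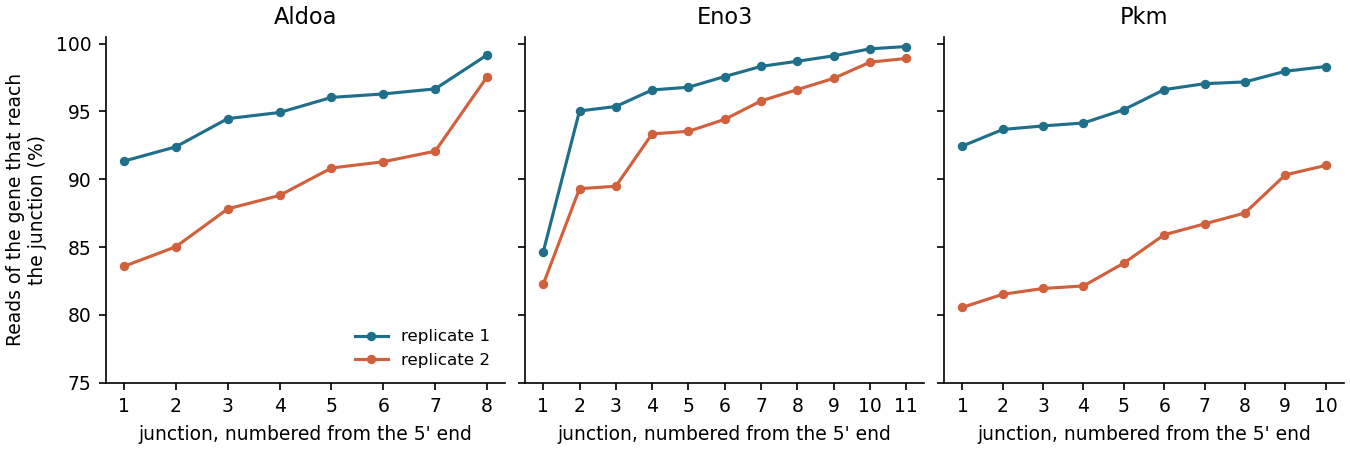
Share of each gene's reads that reach each junction of its leading model, junctions numbered from the 5′ end, 1 line per library. The vertical axis starts at 75%. Replicate 2 lies below replicate 1 throughout, with the widest gap in Pkm.

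Small shifts of splice sites were a feature of all 3 genes. Within 12 bases of the sites of each leading model, 42 other donors and 26 other acceptors were used, and 25 and 13 of them were found in both libraries. Other donors held 633 and 1548 reads in all, 577 and 1440 of them in Eno3. The largest over both libraries together was 4 bases after the donor of Eno3 exon 4, with 221 of 9175 reads (2.41%, 2.11 to 2.74%) and 737 of 13846 (5.32%, 4.96 to 5.71%). The share was higher in replicate 2, and the intervals did not overlap. In replicate 1 the annotated donor of exon 1 that lies 12 bases on, given above, had more reads (254). In Eno3 exon 7 the donor 4 bases on had 18 (0.193%) and 79 (0.557%) reads. In Pkm exon 7 the donor 4 bases on had 26 (0.583%) and 51 (1.58%) reads. In Aldoa exon 6 it had 2 and 18 reads. Donors 4 bases downstream thus occurred in each gene and, at these 4 sites, had a larger share in replicate 2.

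Summed over the genes, donors 4 bases downstream held 278 and 924 reads, donors 12 bases downstream 256 and 468, and donors 5 bases downstream 55 and 94. No other donor distance exceeded 17 reads in a library. Donors upstream of the main ones were rare. Other acceptors held 74 and 102 reads in all, with 26 and 30 reads at 4 bases. By reads summed over the libraries, the most used was 4 bases after the acceptor of Aldoa exon 4, with 21 (0.150%) and 19 (0.118%) reads. The difference between a shifted splice site and a shifted alignment of the read was not tested, and the genome sequence of these introns was not used here.

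**Figure D5:**
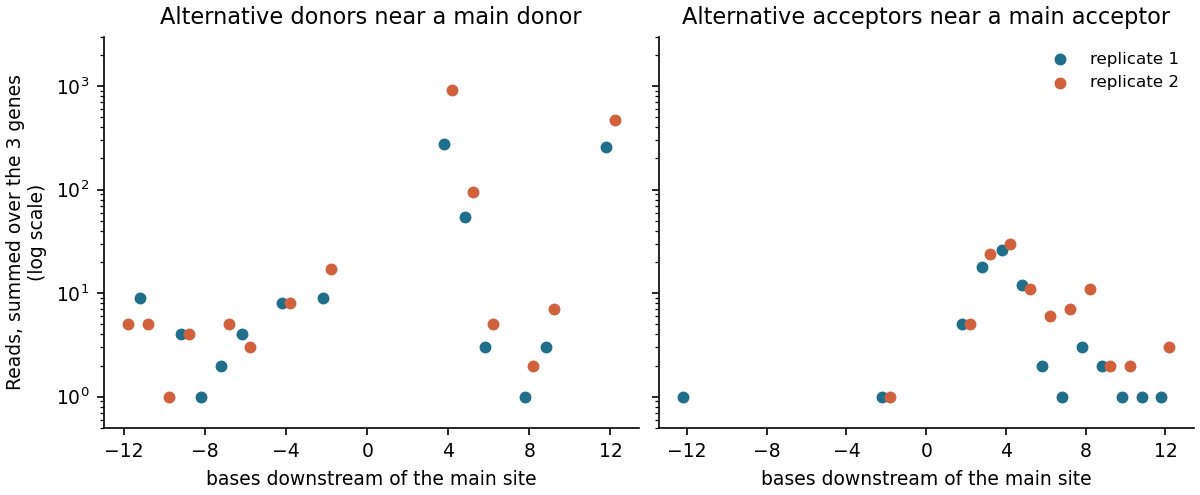
Reads at splice sites other than that of the leading model, summed over Aldoa, Eno3 and Pkm, by their distance in bases downstream of the leading model's donor (left) or acceptor (right), log scale, 1 point per library. The donor points peak at 4 bases (278 and 924 reads) and at 12 bases (256 and 468 reads, mainly the annotated donor of Eno3-205).

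Introns of the leading chains were almost never kept inside a spliced read. A read kept an intron when an exon with junctions on both sides covered it. The share was at most 0.0293% and 0.0360% over the 8 introns of Aldoa and 0.0233% and 0.0597% over the 10 of Pkm. Eno3 had the highest value, at intron 7, kept by 24 reads in replicate 2 (0.170%, 0.114 to 0.253%) and 1 read in replicate 1 (0.0107%). Terminal exons were left out of this count because their ends are not read ends.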

How the data were processed

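Long-read RNA-seq of 2 gastrocnemius libraries was analysed from the deposited tables of raw read counts per transcript model, which were not normalized or pooled. Per the file headers, models were on mm10 with the GENCODE M21 annotation, and the deposited annotation files name TALON. The aligner is not given in the sources used here. Exon chains came from the deposited annotation files, and models were matched between the libraries by splice junctions, with overlapping single-exon models joined. CPM scaled counts to 1000000 over the annotated genes of a library. Library totals were 1106945 and 1514119 reads.

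A quasi-likelihood fit needs residual degrees of freedom, which 1 library a side does not leave. Genes with at least 10 reads in sum were compared by a two-sided exact conditional binomial test (0.5 reads added for log2 ratios). Leading-model shares, with at least 50 reads in each library, were compared by Fisher's exact test (scipy 1.17.1, Python 3.11.15). The gene test was tested on simulated data. Scaling alternatives used edgeR 4.0.16 and DESeq2 1.42.0 in R 4.3.3. Other alternatives were other model classes, at least 2 reads per model, splice sites within 10 bases, overlap of first exons and leaving out a replicate. Models with at least 1% of a gene's reads in either library, the 3 genes nearest in level and the members of the lists were named. The members and lists were chosen with earlier results of these data known. Introns kept were counted in internal exons only, a choice made after model ends were seen to differ from read ends. The values of 1 list member are not reported here.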

Additional observations from a re-analysis of the deposited data

Results flagged for a closer look

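Reads on the strand opposite to a member fell outside the counts above and were found only at Pkm among the 3 genes. Unannotated antisense models over Pkm held 63 reads in 6 models in replicate 2, and 6 reads in 2 models in replicate 1. There was no control sample, so the background of such reads is not known. In replicate 2, 56 of the reads were in 1 model at chr9:59659604-59660987, inside intron 1 of Pkm. The largest model of replicate 1, with 4 reads, lay at chr9:59659605-59661415. How strand was assigned to the reads is not given in the sources used here, and the source of these reads was not tested. Aldoa and Eno3 had 0 antisense reads in either library, which allows up to 3.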

How the results depend on the processing

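The Pkm exon 9 share moved by less than its SD under all 6 settings of class, read number, splice site tolerance and junctions, and ranged from 98.9% to 99.6% when either replicate was left out. The Aldoa muscle first exon share ranged from 89.2% to 89.3% and the Eno3 leading first exon share from 83.7% to 84.2% when either replicate was left out. Without incomplete and genomic models the mean Aldoa share was 52.1% (10.5% and 93.8%), because the libraries class the leading chain differently. With each model in the higher of its 2 classes it was 93.0%, and with first exons upstream of the start codon only it was also 93.0%. Over annotated models alone it was 0% in both libraries, since no annotated transcript holds that chain. The Eno3 share was 87.6% over annotated, new-combination and new-junction models, 87.6% with the higher class, 90.3% over annotated models, 81.6% by overlap of first exons and 96.3% upstream of the start codon; these settings change which reads enter the denominator. Genes called for their leading model numbered 337 with at least 100 reads in each library, and 20 over annotated, new-combination and new-junction models, against 559. Gene calls between libraries stayed within 1.5 times of 1458, but TMM factors shared 984 of these calls and DESeq2 factors 836. Levels over annotated, new-combination and new-junction models moved by more than the SD for Aldoa (8051 CPM) and Eno3 (11406 CPM) and not for Pkm. The higher-class and upstream settings were chosen after seeing the data. With 49 and 15 reads, depth limits what can be said of Pkm exon 10. No paired analysis was possible because the labels give 1 group.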
